A study of Mus musculus with 2 samples.

Results

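The genes described here are homeobox transcription factors that lie outside the Hox clusters, measured in teratomas, tumours in which transplanted pluripotent stem cells differentiate into many tissues side by side. They were chosen by name, as genes measured by an unshared probe set whose current symbol belongs to the Dlx, Lhx, sine oculis-related, Msx, Pitx, Irx, Meis, Pbx, En, Hhex, Pax, Prrx, Alx, Isl, Nkx or POU families, and 70 of the 12393 genes on the array qualified. Pax6, Otx2 and Pou5f1, whose names fit the same pattern, were left out of the set. The rule uses no measured value. Pax1 and Pax9, both in the set by their names, belong to the branch of the Pax family that has no homeodomain.

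One array held RNA from teratomas of EiPS cells, induced pluripotent cells of the C57BL/6 (B6) strain that the labels also call 1E12 iPS, and the submitters call these tumours regressing (the EiPS pool). The other held RNA from teratomas of B6 embryonic stem cells (the B6 ES pool). Cells of either kind had been grafted subcutaneously into male B6 hosts, surgery to take the tumours followed at week 6, and each array received the pooled RNA of 2 tumours. With 1 array per group there is no replicate check, nothing was tested, and each value describes these 2 pools. In such bulk tissue, fewer cells of a type and less RNA per cell cannot be told apart.

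Homeobox genes encode proteins that bind DNA through a helical domain, the homeodomain, and most of them act in the embryo to fix where a cell lies and what it becomes. Families differ in what accompanies that domain: POU proteins carry a second DNA-binding domain, LIM proteins carry zinc-binding LIM domains that recruit Ldb cofactors, many Pax proteins carry a paired domain, and Meis and Pbx proteins bind DNA together with Hox and other homeodomain partners. In teratomas such genes are markers of the region and lineage that the differentiating cells have taken on.

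Promoters of developmental regulators are typically rich in CG dinucleotides, so the 250 bases before the annotated start are shown for members on which the results turn: the neighbours Dlx1 and Dlx2, Lhx8, Msx3, and the close relatives Six6 and Six3, which differed between the pools in opposite directions. Sequences and positions are from RefSeq on build GRCm38.p6, 5′ to 3′ along the gene's strand, with each CG in capitals. The windows are chr2:71529195-71529444 on the plus strand (Dlx1), chr2:71546755-71547004 on the minus strand (Dlx2), chr3:154330561-154330810 on the minus strand (Lhx8), chr7:140049089-140049338 on the minus strand (Msx3), chr12:72939632-72939881 on the plus strand (Six6) and chr17:85620584-85620833 on the plus strand (Six3).
Dlx1: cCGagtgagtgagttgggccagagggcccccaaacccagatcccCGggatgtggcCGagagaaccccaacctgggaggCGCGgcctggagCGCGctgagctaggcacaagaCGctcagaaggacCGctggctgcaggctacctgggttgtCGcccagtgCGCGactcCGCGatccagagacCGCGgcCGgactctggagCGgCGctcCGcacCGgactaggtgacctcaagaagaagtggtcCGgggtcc
Dlx2: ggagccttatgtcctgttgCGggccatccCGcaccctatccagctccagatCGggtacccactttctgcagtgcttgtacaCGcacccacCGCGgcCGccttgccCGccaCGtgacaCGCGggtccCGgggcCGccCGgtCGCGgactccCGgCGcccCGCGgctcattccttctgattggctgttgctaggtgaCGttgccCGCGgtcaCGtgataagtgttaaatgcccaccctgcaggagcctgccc
Lhx8: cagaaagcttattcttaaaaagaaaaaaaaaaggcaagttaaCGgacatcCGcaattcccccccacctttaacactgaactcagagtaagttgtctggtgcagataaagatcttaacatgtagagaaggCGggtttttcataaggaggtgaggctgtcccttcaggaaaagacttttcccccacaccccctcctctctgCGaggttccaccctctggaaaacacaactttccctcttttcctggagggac
Msx3: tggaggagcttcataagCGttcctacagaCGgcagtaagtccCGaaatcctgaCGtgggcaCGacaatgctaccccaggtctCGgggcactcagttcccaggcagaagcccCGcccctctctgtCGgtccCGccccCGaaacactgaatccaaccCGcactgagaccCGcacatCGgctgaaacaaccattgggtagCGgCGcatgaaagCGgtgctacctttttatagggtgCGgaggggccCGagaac
Six6: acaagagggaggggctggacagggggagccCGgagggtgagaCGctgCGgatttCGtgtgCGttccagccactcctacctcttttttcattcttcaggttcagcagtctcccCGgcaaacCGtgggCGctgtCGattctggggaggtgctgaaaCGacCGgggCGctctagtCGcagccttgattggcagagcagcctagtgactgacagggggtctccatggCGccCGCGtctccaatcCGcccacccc
Six3: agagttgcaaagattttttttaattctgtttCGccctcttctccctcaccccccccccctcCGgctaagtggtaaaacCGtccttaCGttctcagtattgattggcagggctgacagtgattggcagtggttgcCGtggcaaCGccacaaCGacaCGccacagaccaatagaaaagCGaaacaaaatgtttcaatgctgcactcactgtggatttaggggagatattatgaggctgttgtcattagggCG

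CG dinucleotides numbered 22 in the Dlx1 window, 24 in that of Dlx2, 18 in that of Msx3, 17 in that of Six6, 10 in that of Six3 and 4 in that of Lhx8. Of the 70 members, 52 had at least 1 window in the table, with a median of 16 CG per window over 57 windows, against 6 over all 32851 windows. The 9 genes with a window whose signal was higher by 2-fold or more in the EiPS pool ranged from 4 to 30, and the 35 measured genes that differed by less ranged from 4 to 33, so the CG content of the 2 sets overlapped. The palindrome TAATTA, a core that many homeodomains bind, stood in 2 of the 57 windows (3.51%, those of Msx2 and Prrx1) and in 4.84% of all windows.

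Signals of many of these genes were low, so a floor was set at 25.99, below which 90% of the signals fell for 71 probe sets of smell, pheromone and taste receptors, taken to be silent in such tissue. Of the 70 members, 45 were above the floor on both arrays, 12 on the EiPS array only, 2 on the B6 ES array only and 11 on neither. The corresponding shares were 17.1% of members and 4.12% of all genes above it on the EiPS array only, and 2.86% of members and 1.85% of all genes above it on the B6 ES array only. A gene above the floor on 1 array is given a bound, "at least", computed against the floor. Such a gene had to differ to be measured, so counts are also given for the 45 members above the floor on both arrays.

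In the EiPS pool 14 of the 59 measured members (23.7%) had signals at least 2-fold higher, where 5.79% of all 10953 measured genes did, and none was at least 2-fold lower, where 3.05% of all genes were. The 14 were Dlx1, Dlx2, Dlx4, Dlx5, En2, Msx3, Nkx6-1, Nkx6-2, Lhx5, Lhx8, Pax3, Pax8, Six5 and Six6. Each of them had only 1 unshared probe set, except Pax3, which had 2. The dimmer one of Pax3 was higher by at least 0.82 on the log2 scale, a bound short of 2-fold. Among the members above the floor on both arrays, 6 of 45 (13.3%) were at least 2-fold higher, and none was lower by as much, against 4.89% and 2.96% of the 10213 genes measured in both pools. The median log2 difference (EiPS less B6 ES) was 0.35 over the 59 members, with a range from -0.65 to 2.30, and 0.07 over all measured genes. Over the 45 it was 0.17, against 0.06 over those 10213 genes. Dim genes leaned the same way throughout the array: among genes whose brighter signal was under 200, 9.62% of all 3421 and 13 of 45 members (28.9%) were at least 2-fold higher, and 2.63% of all and no member at least 2-fold lower. Of these dim genes, 12 of the 45 members and 505 of all 3421 were above the floor on the EiPS array only, and so had to differ to be measured. Among genes at 200 or more, 4.05% of all 7532 and 1 of 14 members, Dlx1, were at least 2-fold higher, and 3.24% of all and no member at least 2-fold lower. The gauge of measurement noise was the SD of log2 differences among probe sets that share a gene, 0.40 over 3798 genes and 0.54 at mean signals under 100, which leaves out the variation between tumours.

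**Figure D1:**
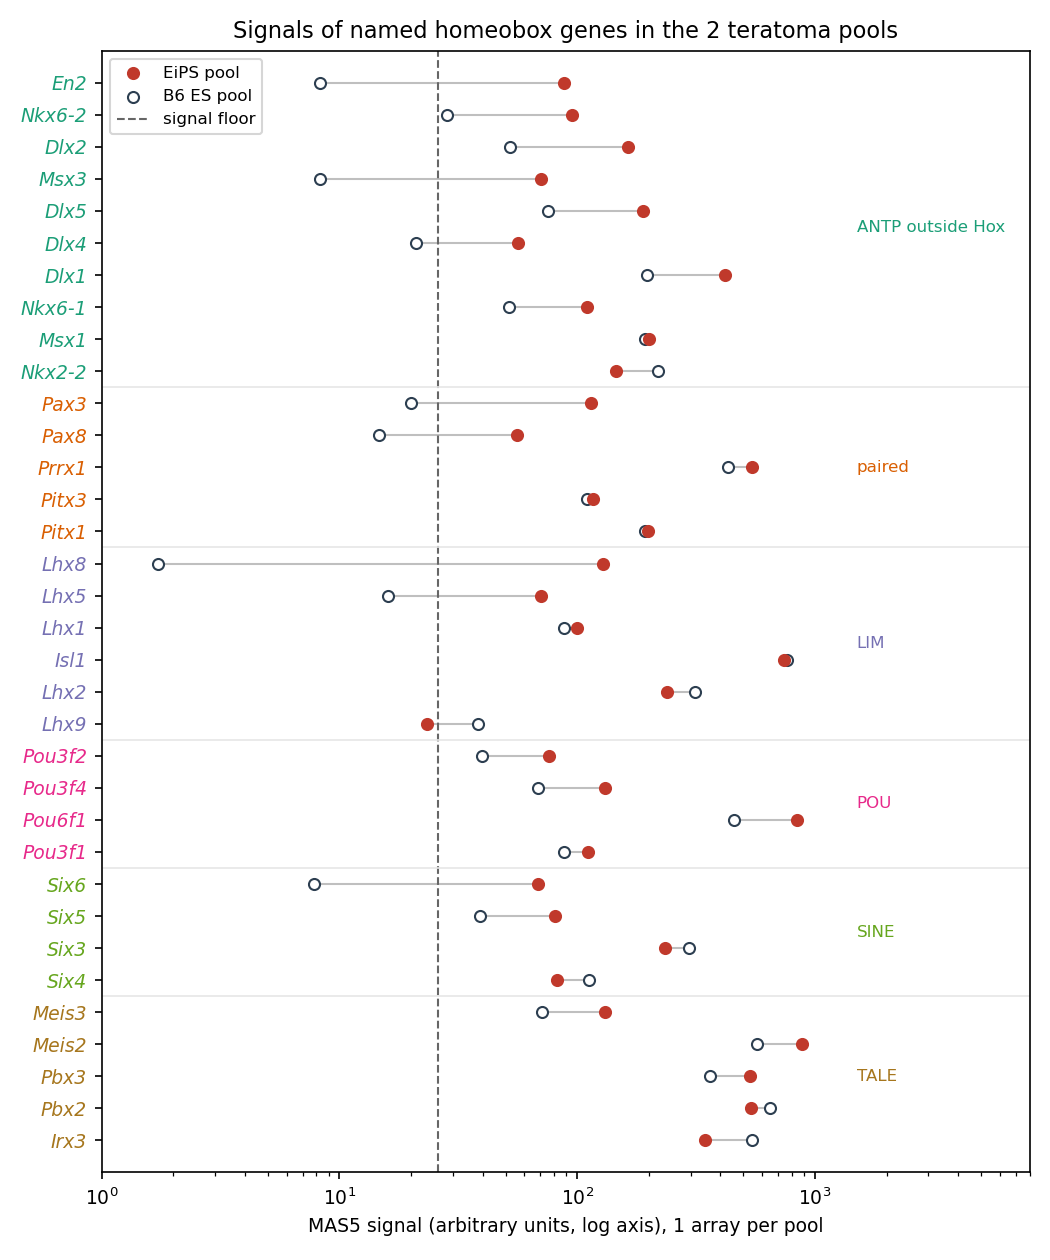
MAS5 signals (log axis, arbitrary units) of the 34 named homeobox genes, 1 row per gene and grouped by homeodomain class. Filled points are the EiPS pool, open points the B6 ES pool, and the dashed line is the floor of 25.99. Lhx8 spans the widest gap, with 128 in the EiPS pool and 1.73 in the B6 ES pool, and Isl1 has nearly coincident points.

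Distal-less (Dlx) genes, which pattern the jaws, limbs and surface ectoderm and drive the formation of inhibitory neurones in the ventral forebrain, were the family with the most members at 2-fold. Dlx2 had a signal of 164 in the EiPS pool and 51.9 in the B6 ES pool, 3.16-fold higher. Dlx5 had 189 in the EiPS pool and 75.4 in the B6 ES pool, 2.51-fold higher, and Dlx1 had 419 in the EiPS pool and 196 in the B6 ES pool, 2.13-fold higher. Dlx4, a gene of the branchial arches and placenta, had 56.5 in the EiPS pool and 21.0, under the floor, in the B6 ES pool, at least 2.17-fold higher. Of the 6 Dlx genes, 4 thus passed 2-fold, and the other two did not share a direction. Dlx3, which acts in hair follicles and teeth, had 36.8 in the EiPS pool and 29.0 in the B6 ES pool (1.27-fold higher), and Dlx6 had 60.4 in the EiPS pool and 79.8 in the B6 ES pool (1.32-fold lower).

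Beside the Dlx genes, the list of face, limb and surface ectoderm genes held Msx3, at least 2.72-fold higher and described with the neural tube genes, and members that differed by less than 2-fold. Msx1, an effector of BMP signalling in limb and tooth mesenchyme, had 200.1 in the EiPS pool and 193 in the B6 ES pool. Its relative Msx2 had 49.97 in the EiPS pool and 33.1 in the B6 ES pool, 1.51-fold higher. The mesenchymal genes Prrx1 and Prrx2, needed for limb and skull bones, had signals of 544 and 99.7 in the EiPS pool against 431 and 91.5 in the B6 ES pool, and Pitx1, which specifies the hindlimb, had 199 in the EiPS pool and 192 in the B6 ES pool. Probe sets of 1 gene went opposite ways for Pitx1 (from -0.46 to 0.05 on the log2 scale) and, marginally, for Prrx1, of which 2 probe sets were nearly equal between the pools and 2 were higher by 0.33 and 0.37. Over the 12 measured genes of this role, the median log2 difference was 0.47, with 11 higher and 1 lower. Of the higher ones, Msx1, Pitx1 and Prrx2 turned lower under quantile, median and loess scaling of the arrays. At least 2-fold higher were 5 (41.7%, 4 Dlx genes and Msx3), against 5.79% of all measured genes. Dlx4 and Msx3 passed the floor on the EiPS array only, and so had to be higher to be measured. Among the 10 members of this role measured in both pools, those at 2-fold were Dlx1, Dlx2 and Dlx5. Msx3 adds to the counts of 5 and 11, although in the mouse it is restricted to the dorsal neural tube. Markers of keratinised epidermis were also higher in the EiPS pool, 6 of 6 measured of 8 (summed signals of 4838 in the EiPS pool and 2470 in the B6 ES pool, with Ivl and Flg under the floor on both arrays, and Krtdap, Lor and Krt5 at 4.23-fold, 4.18-fold and 1.45-fold). Of 5 cartilage markers 3 of 4 measured were higher (summed signals of 849 in the EiPS pool and 385 in the B6 ES pool, Matn1 under the floor on both arrays). Their part in the Dlx values was not tested.

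Among LIM homeobox genes, Lhx8 and Lhx5 passed 2-fold and the others ranged from 1.97-fold higher to at least 1.48-fold lower. Lhx8, which with Lhx6 specifies ventral forebrain neurones and also marks tooth and jaw mesenchyme, had the largest difference of all members: 128 in the EiPS pool and 1.73 in the B6 ES pool, at least 4.92-fold higher. Lhx6 had 72.7 in the EiPS pool and 37.0 in the B6 ES pool, 1.97-fold higher and just short of the threshold. Lhx5, a gene of the early forebrain and of spinal interneurones, had 70.6 in the EiPS pool and 16.1 in the B6 ES pool, at least 2.72-fold higher. In contrast, Isl1, found in motor neurones, sensory neurones, pancreas and heart progenitors, had 744 in the EiPS pool and 766 in the B6 ES pool, and its 2 probe sets differed by -0.04 and -0.13. Lhx2, required for eye and cortex, had 238 in the EiPS pool and 314 in the B6 ES pool. Lhx1 had 99.4 in the EiPS pool and 88.2 in the B6 ES pool by its brighter probe set, while its other probe set was lower by 0.15 on the log2 scale. Lhx9, a gene of gonad and diencephalon, had 23.3 in the EiPS pool, under the floor, and 38.4 in the B6 ES pool, at least 1.48-fold lower. Of 10 LIM genes 9 were measured, 5 higher (Lhx1 turned lower after quantile normalization) and 4 lower.

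Genes that mark levels along the neural tube included several of the larger differences. Pax3, which acts in the dorsal neural tube, neural crest and muscle precursors, had 114 in the EiPS pool and 20.0 in the B6 ES pool, at least 4.39-fold higher, and its other probe set was higher by at least 0.82 on the log2 scale. Msx3, in the mouse restricted to the dorsal neural tube, had 70.7 in the EiPS pool and 8.27 in the B6 ES pool, at least 2.72-fold higher. En2, a gene of the midbrain and cerebellum, had 88.2 in the EiPS pool and 8.25 in the B6 ES pool, at least 3.39-fold higher. All 3 were thus under the floor in the B6 ES pool. Ventral genes went both ways. Nkx6-2, active in ventral progenitors and oligodendrocytes, had 94.99 in the EiPS pool and 28.3 in the B6 ES pool, 3.35-fold higher from a level just over the floor. Nkx6-1, a gene of motor neurone progenitors and beta cells, had 109.5 in the EiPS pool and 51.6 in the B6 ES pool, 2.12-fold higher. Nkx2-2, which marks the most ventral progenitors and endocrine pancreas, had 145 in the EiPS pool and 218 in the B6 ES pool, 1.503-fold lower.

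Members of the SINE class, relatives of the fly eye gene sine oculis, were divided as well. Six6, a gene of the eye and hypothalamus, had 68.7 in the EiPS pool and 7.79 in the B6 ES pool, at least 2.64-fold higher. Six3, its closest relative and a gene of the anterior forebrain and eye, had 234 in the EiPS pool and 294 in the B6 ES pool, 1.25-fold lower. Only 1 of the 3 probe sets of Six3 was above the floor, and its log2 difference of -0.33 was smaller than the SD of 0.40 among probe sets. Six5 had 81.0 in the EiPS pool and 38.8 in the B6 ES pool, 2.09-fold higher. Six4, a gene of muscle formation, had 82.5 in the EiPS pool and 112 in the B6 ES pool, 1.36-fold lower, and Six2, a gene of kidney progenitors, had 37.1 in the EiPS pool and 37.2 in the B6 ES pool. Of 5 markers of pigment cells and eye, 4 were measured, with summed signals of 432 in the EiPS pool and 568 in the B6 ES pool: Rlbp1 had 122 in the EiPS pool and 358 in the B6 ES pool, Dct had 52.2 in the EiPS pool and 13.4 in the B6 ES pool, and Crx had 33.6 in the EiPS pool and 19.6 in the B6 ES pool, with Tyr under the floor on both arrays. Their part in the Six6 value was not tested.

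The measured POU genes all leaned one way without reaching 2-fold. Pou3f2 and Pou3f4, which act in neural progenitors and young neurones, had 76.4 and 131 in the EiPS pool against 39.6 and 68.3 in the B6 ES pool, 1.93-fold and 1.92-fold higher, and a further probe set of Pou3f4 was higher by 1.12 on the log2 scale. Pou6f1 had 837 in the EiPS pool and 458 in the B6 ES pool, 1.83-fold higher. Pou3f1, a gene of Schwann cells and keratinocytes, had 111 in the EiPS pool and 88.3 in the B6 ES pool. Among 8 POU genes, 6 were measured, all 6 were higher and the median log2 difference was 0.65. Only 4 of the 6 were above the floor on both arrays. Pou2f2 and Pou2f3 passed it on the EiPS array only, and so had to be higher to be measured. Under the floor on both arrays, Pou3f3 had 1.62 in the EiPS pool and 19.5 in the B6 ES pool, and Pou4f3 had 1.19 in the EiPS pool and 2.96 in the B6 ES pool. Pou2f2, abundant in B cells, had 34.9 in the EiPS pool and 22.4, under the floor, in the B6 ES pool, and Pax5, which defines B cells, was under the floor on both arrays together with the B cell markers Cd79a and Ms4a1, while a further B cell marker, Cd79b, had 47.6 in the EiPS pool and 38.2 in the B6 ES pool.

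Markers of neurones in general ran the other way. All 8 were lower in the EiPS pool, with summed signals of 9298 in the EiPS pool and 20113 in the B6 ES pool, and 3 of them, Slc17a6, Nefl and Stmn2, were 4.48-fold, 2.77-fold and 2.66-fold lower. The 16 measured members assigned to neurone types had a median log2 difference of 0.76, with 12 higher (Lhx1 and Pax7 turned lower after quantile normalization) and 4 lower. At least 2-fold higher were 5 (31.25%), against 5.79% of all measured genes, and of these Lhx5, Lhx8 and Pax3 were under the floor in the B6 ES pool. The roles share genes: Pax3, Pax7 and Isl1 were also counted with muscle, somite and heart, and Isl1, Nkx6-1 and Nkx2-2 with endoderm. Of the 7 measured members that mark brain regions, 3 were higher and 4 lower, with a median of -0.25, and the 3 higher ones (En2, Pax8 and Six6) were all under the floor in the B6 ES pool. The part of neuronal content in these values was not tested.

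Of the remaining Pax and Nkx genes, which serve muscle, somite, endoderm and kidney, only Pax8 passed 2-fold. Pax8, required in thyroid and kidney, had 55.9 in the EiPS pool and 14.7 in the B6 ES pool, at least 2.15-fold higher. Pax9, a gene of pharyngeal pouches, teeth and vertebral bodies, had 101 in the EiPS pool and 60.5 in the B6 ES pool, 1.67-fold higher, and Pax7, which marks muscle satellite cells and dorsal neural tube, had 62.8 in the EiPS pool and 52.3 in the B6 ES pool. Pitx3, a gene of lens and dopamine neurones, had 116 in the EiPS pool and 109.6 in the B6 ES pool. Skeletal muscle markers were lower throughout (8 of 8, 6 by at least 2-fold, summed signals of 27414 in the EiPS pool and 62063 in the B6 ES pool), Myh4, Mb and Myh1 by 21.8-fold, 6.02-fold and 5.21-fold. The muscle, somite and heart members were not: of 10 measured, 7 were higher (Pax7 and Pitx3 turned lower after quantile normalization) and 3 lower, with a median of 0.30, which was 0.0050 after quantile normalization. Hhex, which acts in liver, thyroid and endothelium, had 104 in the EiPS pool and 138 in the B6 ES pool, 1.33-fold lower, and Nkx2-6, a pharyngeal and heart gene, had 48.0 in the EiPS pool and 9.92 in the B6 ES pool, at least 1.85-fold higher. Thyroid markers beside Pax8 went both ways: Slc5a5 was 2.05-fold lower, Tg 1.55-fold higher and Tshr at least 1.52-fold higher. Of 3 kidney markers 2, Nphs1 and Umod, were under the floor on both arrays, and Slc34a1 had 27.4 in the EiPS pool and 18.0, under the floor, in the B6 ES pool. The part of either tissue in the Pax8 value was not tested. Of 6 gut epithelium markers 5 were higher, 4 of them at least 2-fold, with summed signals of 3439 in the EiPS pool and 1466 in the B6 ES pool. Tff3 and Krt20 were 6.95-fold and 5.13-fold higher, and Fabp2 was 2.73-fold lower. Their part in the endoderm members was not tested.

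The TALE genes, named for extra residues in the homeodomain, went both ways, and none reached 2-fold. Among Meis genes, cofactors of Hox proteins, Meis1 had 403 in the EiPS pool and 245 in the B6 ES pool (1.65-fold higher), Meis2 had 879 in the EiPS pool and 571 in the B6 ES pool (1.54-fold higher), and Meis3 had 131 in the EiPS pool and 71.5 in the B6 ES pool (1.83-fold higher). Their partners Pbx3 and Pbx4 were 1.48-fold and 1.55-fold higher. Pbx2 had 538 in the EiPS pool and 646 in the B6 ES pool in the probe set chosen by brightness, whereas the log2 differences of its 3 probe sets spanned -0.26 to 0.86. The Iroquois genes Irx1, Irx2, Irx3 and Irx5, which pattern neural tube, heart and limb, were all lower in the EiPS pool. The log2 differences of Irx1, Irx2 and Irx5 (-0.25, -0.18 and -0.25) were smaller in size than the SD of 0.40 among probe sets. Irx3, the furthest apart, had 345 in the EiPS pool and 541 in the B6 ES pool, 1.57-fold lower, which was the lowest difference of any measured member. The directions of Irx1, Irx2, Irx3, Irx5 and of the Meis genes were kept under quantile, median and loess scaling of the arrays, while Irx6 (43.0 in the EiPS pool, 38.8 in the B6 ES pool) turned lower under quantile and loess scaling.

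**Figure D2:**
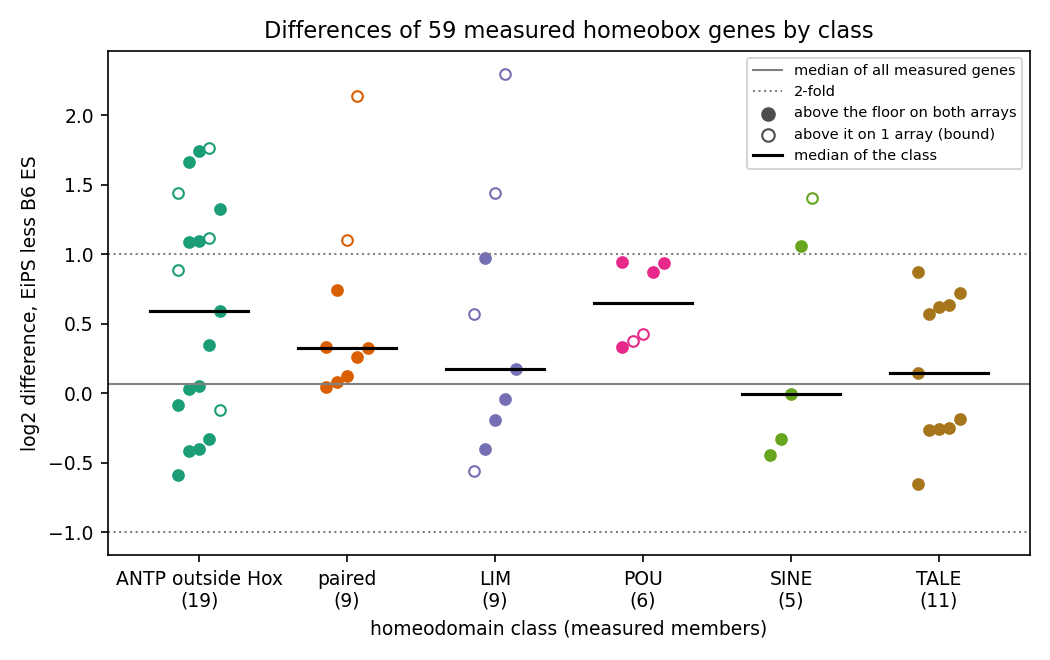
Log2 difference (EiPS less B6 ES) of each of the 59 measured homeobox genes, by homeodomain class. Filled points were above the floor on both arrays, open points on 1 array only (bounds), black bars are class medians, the grey line is the median of all measured genes (0.07) and dotted lines mark 2-fold. All 9 paired genes lie above 0, although Pax7, Pitx1, Pitx3 and Prrx2 turned lower after quantile normalization. All 6 POU genes lie above 0, and no gene lies below the lower 2-fold line. The open points of these classes (Pax3, Pax8, Pou2f2 and Pou2f3) passed the floor on the EiPS array only, and so had to lie above 0.

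Under the floor on both arrays, and so not compared, were En1, Nkx2-1, Nkx2-9, Nkx3-2, Lhx4, Pou3f3, Pou4f3, Irx4, Alx4, Pax4 and Pax5. Nkx2-1, which defines thyroid, lung and ventral forebrain, had signals of 3.04 in the EiPS pool and 1.39 in the B6 ES pool. Lung and airway markers went both ways, with summed signals of 1381 in the EiPS pool and 2105 in the B6 ES pool. The surfactant genes Sftpc and Sftpb had 682 and 175 in the EiPS pool against 104 and 55.2 in the B6 ES pool, whereas the secretoglobins Scgb3a2 and Scgb1a1 had 278 and 246 in the EiPS pool against 1524 and 423 in the B6 ES pool. Sequences recognised by a probe set need not be present in every transcript of a gene, so a signal under the floor does not show that the gene was silent.

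The measured members not described so far all differed by less than 2-fold and were dim. The brightest was Nkx2-3, a gene of gut mesenchyme, with 109 in the EiPS pool and 115 in the B6 ES pool by its brightest probe set and 35.1 in the EiPS pool and 29.3 in the B6 ES pool by another. Nkx2-5, the heart field gene, had 37.3 in the EiPS pool and 46.9 in the B6 ES pool, and Isl2, a gene of motor and sensory neurones, had 37.0 in the EiPS pool and 42.4 in the B6 ES pool. Pax1, a gene of the ventral somite, had 37.9 in the EiPS pool and 30.2 in the B6 ES pool, and Nkx1-2 had 30.1 in the EiPS pool and 29.5 in the B6 ES pool. These pairs of signals lie near the floor on both arrays. Lhx3, a gene of pituitary and motor neurones, had 38.7 in the EiPS pool and 12.5 in the B6 ES pool, at least 1.49-fold higher, and Pou2f3, a gene of tuft cells and epidermis, had 33.7 in the EiPS pool and 21.2 in the B6 ES pool, at least 1.30-fold higher. Nkx2-4 had 5.81 in the EiPS pool and 28.2 in the B6 ES pool, so that it was just over the floor on the B6 ES array only.

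Neighbours in the genome were compared, since the Dlx, Irx and some Nkx genes lie in pairs or small clusters. With no other protein-coding gene between them, 12 pairs of members adjoined each other, and both genes of 9 pairs were measured, of which 6 had the same sign. Of all 59 measured members 41 were higher and 18 lower, so pairs that are not neighbours would often share a sign too. Their share was not computed, so the count of 6 shows nothing particular to neighbours. Some pairs also overlapped, in Irx5 and in Nkx2-2. Dlx1 and Dlx2 were both over 2-fold higher, and Irx3 and Irx5 were both lower, as were Irx1 and Irx2. Dlx5 and Dlx6 differed in sign, as the values above show.

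The other genes of the homeobox class outside the Hox clusters served as a comparison. Of 61 with an unshared probe set, 40 were measured, and their median log2 difference was 0.15. In the EiPS pool 2 (5%) were higher by 2-fold or more, near the 5.79% of all measured genes. None was at least 2-fold lower, against 3.05% of all measured genes. The largest differences were those of Nanog, a pluripotency factor, with 80.9 in the EiPS pool and 11.0 in the B6 ES pool (at least 3.11-fold higher), of Hlx, a gene of gut mesenchyme, 2.06-fold higher (66.2 in the EiPS pool, 32.1 in the B6 ES pool), and of Barhl1, at least 1.85-fold higher. Among 16 measured cofactors of LIM, SINE-class and other homeodomain proteins, 8 were higher and 8 lower with a median of 0.05. Ldb1, the adaptor that LIM homeodomain proteins need, had 614 in the EiPS pool and 280.1 in the B6 ES pool and, at 2.19-fold higher, was the 1 cofactor past 2-fold. Lmo2 and Dach2 were 1.83-fold and 1.68-fold lower.

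**Figure D3:**
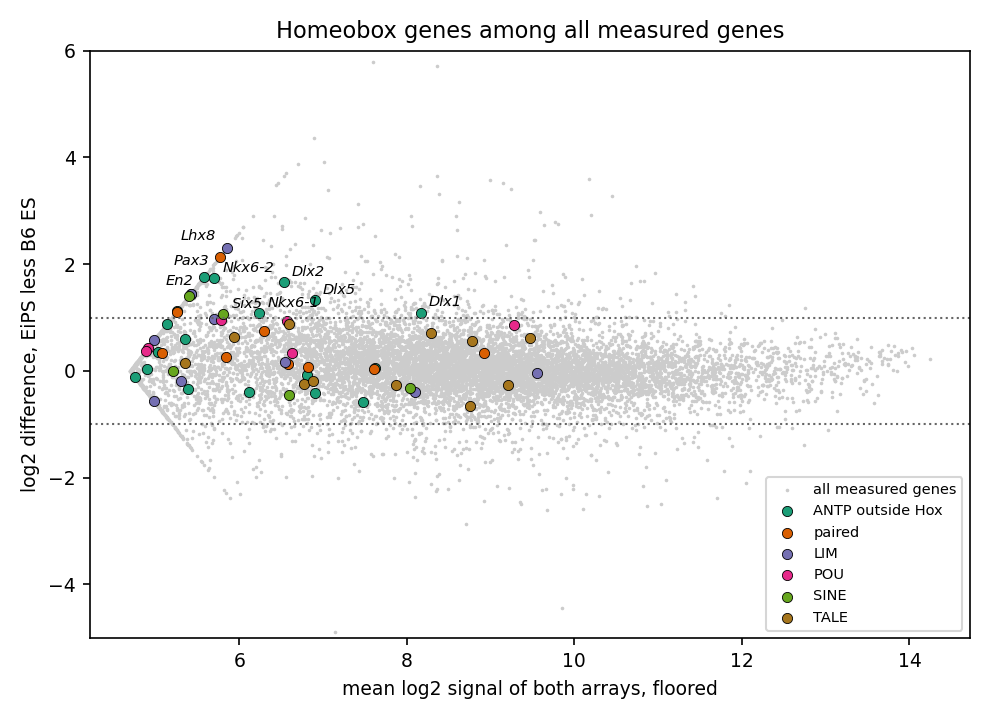
Log2 difference (EiPS less B6 ES) against the mean log2 signal of both arrays, with signals under the floor set to it. Grey points are the 10953 measured genes and coloured points the 59 homeobox genes. Apart from Dlx1, the genes past the upper dotted 2-fold line lie at the dim end, and those on the upper left edge are bounds.

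The count of 14 rested on dim signals. With the floor raised to 49.2, the 98th percentile of the silent receptors, 6 of 46 measured members were at least 2-fold higher, namely Dlx1, Dlx2, Dlx5, Nkx6-1, Lhx8 and Pax3, where the share of all genes was 4.56%. With a floor of 100, where the share of all genes was 3.39%, Dlx1 was the 1 of 30. Some of the 14 also depended on how the arrays were scaled: Six5 and Nkx6-1 were under 2-fold after quantile, equal-median and loess scaling, Dlx4 and Pax8 after quantile and loess scaling, and Dlx1 with equal medians.

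**Figure D4:**
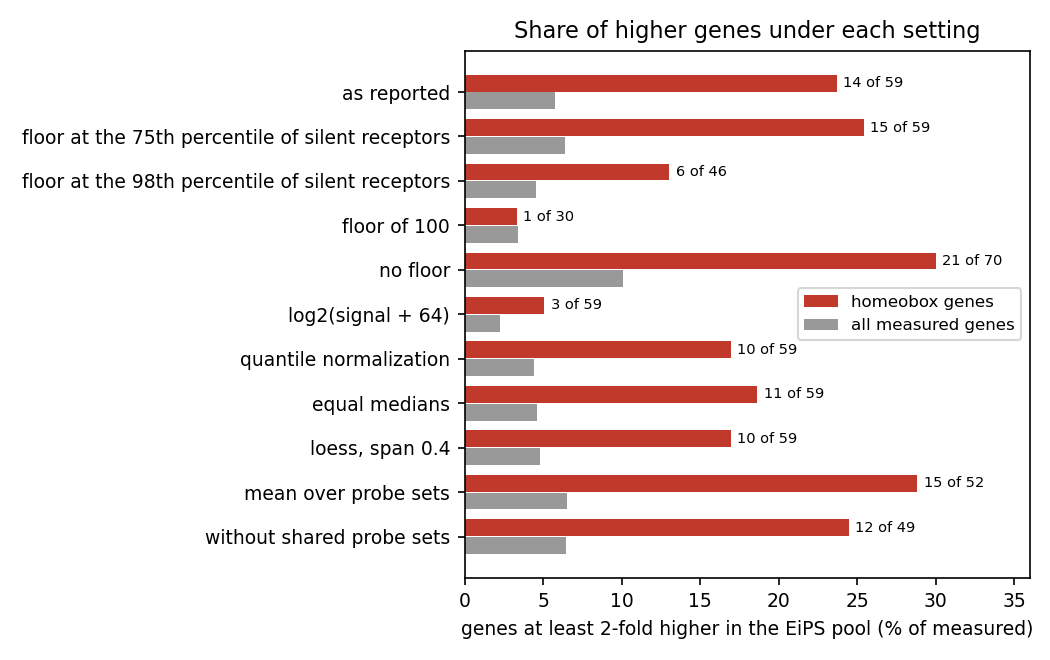
Share of measured genes with signals higher by 2-fold or more in the EiPS pool, for the homeobox genes (red, with counts) and for all measured genes (grey), as reported and under 10 other settings of the floor, scale, array scaling and probe set choice. The red bar is longer than the grey one except with a floor of 100, where 1 of 30 members passed.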

How the data were processed

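Total RNA of the pooled tumours had been labelled with biotin, from 5 µg, and hybridised to Affymetrix mouse arrays, 1 array per group. The intensity values deposited by the authors, linear and 1 per probe set, came from Affymetrix Expression Console and MAS5 according to the submitters' processing notes. The sources used here give no versions or settings, and detection calls were not used. From the values, the 2% trimmed mean was 500.2 on both arrays, so no further scaling was applied. Median signals were 196 (EiPS) and 179 (B6 ES), and 81.9% and 79.0% of 22690 probe sets were above the floor. MAS5 subtracts mismatch signal, which makes low values noisy, and the number of arrays limits the precision.

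Probe sets were named through the platform annotation, updated by Entrez identifier with RefSeq (GRCm38.p6): 20380 had 1 gene symbol (20351 matched by identifier), 691 several and 1555 none, beside 64 controls. Of several probe sets, a gene took the brightest by mean log2 signal. Members were named if at least 2-fold different, among the 3 brightest of a class, or furthest in either direction in it. Up to 3 genes were named per other list, and further genes were named after their values were seen. The members and lists were chosen with earlier results of these data known. The gene lists and the rule for named genes came from that choice, and the promoters shown were picked after the values were seen. No test, p-value or SE was computed, and the procedure was tested on simulated data. The alternatives were other floors, log2(signal + 64), 3 scalings and other probe set rules. Values were computed with Python 3.11.15, pandas 2.3.3, numpy 2.4.6 and statsmodels 0.14.6.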

Additional observations from a re-analysis of the deposited data

How the results depend on the processing

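The count of 14 members higher by 2-fold or more was 6 of 46 with a floor at the 98th percentile of the silent receptors, 1 of 30 with a floor of 100, and 3 of 59 (En2, Lhx8 and Pax3, against 2.25% of all genes) with log2(signal + 64), because each of these settings shrinks or removes low signals. Under the other 7 alternatives it was 10 to 21. The lowest was 10 of 59 after quantile normalization and after loess scaling, against 4.42% and 4.84% of all genes. The highest was 21 of 70 with no floor, against 10.1% of all genes. No member was at least 2-fold lower under any alternative except with no floor, where 4 of 70 were (Nkx2-4, Pou3f3, Pax4 and Pou4f3), all from EiPS signals under the floor, against 5.81% of all genes. The median log2 difference of the members was 0.35, and 0.069 with a floor of 100, 0.20 with log2(signal + 64), 0.15 after quantile normalization, 0.22 with equal medians, 0.24 after loess scaling and 0.59 with the mean over probe sets. Equal medians moved the median of all genes by -0.12. The share of higher genes among all genes past 2-fold was 65.5% (634 higher, 334 lower), and 52.9% (482, 429) after quantile normalization, 52.4% (505, 458) with equal medians and 56.9% (529, 400) after loess scaling. The median of the TALE class was 0.15, but -0.15 with quantile normalization and -0.06 with loess. The median of the endoderm members was 0.35, and -0.042 with a floor at the 98th percentile and -0.061 with one of 100. That of the brain region members was -0.25, and 0.43 with the mean over probe sets. With the mean over probe sets 6 brain region members were measured, against 7 otherwise. Six3, lower in the EiPS pool by its brightest probe set, was under the floor on both arrays once its 3 probe sets were averaged. No member that was at least 2-fold higher changed sign under any alternative, but most alternatives could not have changed it. Other floors and log2(signal + 64) cannot reverse a sign. The probe set rules could alter only the value of Pax3, whose 2 probe sets were both higher. That left the 3 scalings. Scaling turned the sign of 5 to 8 members, the largest of size 0.26. No paired analysis was possible because each group has 1 array.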

Other observations

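Genes that act beside the Dlx, Lhx8 and Lhx6 genes were looked up after the values were seen, so these lists were chosen on the data and carry no test. Markers of inhibitory neurones, the forebrain cell type in which Dlx genes act, were mostly lower in the EiPS pool: 6 of 7 measured genes, with Slc32a1, the vesicular GABA transporter, at 272 in the EiPS pool and 884 in the B6 ES pool, Gad1 at 1713 in the EiPS pool and 2926 in the B6 ES pool, and Npy the exception at 1755 in the EiPS pool and 871 in the B6 ES pool. Of 6 genes of cholinergic neurones, a type in which Lhx8 acts, 2 were measured and went opposite ways: Ache, which encodes acetylcholinesterase, had 188 in the EiPS pool and 427 in the B6 ES pool, 2.27-fold lower, and Ngfr, a neurotrophin receptor gene, had 268 in the EiPS pool and 174 in the B6 ES pool, 1.54-fold higher. Slc18a3 and Slc5a7, which carry acetylcholine and choline, were under the floor on both arrays. Of 10 jaw and tooth genes, 4 were measured, 1 higher and 3 lower. Amelx, which encodes the enamel protein amelogenin, had 64.8 in the EiPS pool and 16.2 in the B6 ES pool, at least 2.49-fold higher, and Sostdc1, a BMP and Wnt antagonist, had 279 in the EiPS pool and 1280.3 in the B6 ES pool. Bmp4 and Edn1 had 349.7 and 79.1 in the EiPS pool against 384 and 92.4 in the B6 ES pool, while Ambn, Enam, Dspp, Barx1, Gsc and Hand2 were under the floor on both arrays.

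Of 11 other genes of the dorsal neural tube, 6 were measured, 4 higher and 2 lower. Neurog2, a proneural factor, had 75.3 in the EiPS pool and 15.6 in the B6 ES pool, at least 2.90-fold higher, and Zic2 had 195 in the EiPS pool and 114 in the B6 ES pool. Zic1 was 1.22-fold higher and Wnt3a at least 1.12-fold higher, while Lmx1a had 49.5 in the EiPS pool and 49.7 in the B6 ES pool, and Atoh1 had 4.87 in the EiPS pool and 29.5 in the B6 ES pool, just over the floor on the B6 ES array only. Olig3, Wnt1 and Neurog1, which are also found in the dorsal neural tube, were under the floor on both arrays. Beside Six6, Rax of the eye field was under the floor on both arrays, with 16.1 in the EiPS pool and 4.43 in the B6 ES pool. Of 9 retina genes 3 were measured, 1 higher (Crx) and 2 lower (Rlbp1 and Opn1sw). Beside En2, 3 of 6 hindbrain and midbrain genes were measured and all 3 were higher by less than 2-fold, Barhl1, Gbx2 and Egr2. Barhl1 and Gbx2 were above the floor on the EiPS array only, and so had to be higher to be measured. Egr2, above it on both arrays, had 76.5 in the EiPS pool and 66.6 in the B6 ES pool.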
